A study of Mus musculus with 81 samples.

Results

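MacroH2A1 (mH2A1) domains 30 min after training were read from 5 of the 81 libraries of the series: ChIP-seq for mH2A1 in hippocampal area CA1 of 2 trained mice (trained 1 and trained 2) and of 3 untrained mice (untrained 1, 2 and 3). The libraries were chosen by their labels alone. All 5 animals were adult male C57BL/6J mice with no genetic or viral manipulation. The trained mice received foot shocks in a context that was new to them and were killed 30 min later, and the untrained mice stayed in their home cage. Each library came with a list of broad domains, stretches of 200-bp bins in which reads from the mH2A1 antibody exceeded those of the same mouse's own input chromatin at a false discovery rate under 0.05, and every domain carried its ChIP reads, its input reads and a log2 ratio of ChIP over input scaled for library size. The lists held 82521 and 63839 domains in trained 1 and 2, against 83013, 95952 and 63198 in untrained 1, 2 and 3. The comparison asks whether mH2A1 moves on chromatin shortly after learning, and where.

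MacroH2A is a variant of histone H2A that carries a large globular macro domain behind its histone fold, and it spreads over long stretches of chromatin instead of marking single sites. It is known from the inactive X chromosome and from silent developmental genes such as the Hox clusters, and in most tissues it is sparse over genes that are being transcribed. Area CA1 holds pyramidal neurons that are needed for contextual memory, and shortly after training they switch on immediate early genes, among them transcription factors such as Fos and Egr1 and the synaptic gene Arc.

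The promoters of 5 genes show the 2 kinds of place at which the groups separated most plainly. The promoters of Wnt1 (a secreted signalling protein of brain development), Tpi1 (the glycolytic enzyme triosephosphate isomerase) and Gfap (the intermediate filament of astrocytes) lay outside every domain in both trained mice and wholly inside a domain in all 3 untrained mice. The promoters of Ins1 (insulin) and Wfdc17 (a small secreted WAP-domain protein) lay inside a domain in both trained mice and outside every domain in all 3 untrained mice. The windows run from 250 bases before to 50 bases after the RefSeq start site in GRCm38.p6 (mm10), 5′ to 3′ on the strand of the gene, and capitals mark each CG dinucleotide, the site of cytosine methylation. Wnt1 is at chr15:98789607-98789906 (+), Tpi1 at chr6:124814109-124814408 (-), Gfap at chr11:102897151-102897450 (-), Ins1 at chr19:52264047-52264346 (+) and Wfdc17 at chr11:83703806-83704105 (+).
Wnt1: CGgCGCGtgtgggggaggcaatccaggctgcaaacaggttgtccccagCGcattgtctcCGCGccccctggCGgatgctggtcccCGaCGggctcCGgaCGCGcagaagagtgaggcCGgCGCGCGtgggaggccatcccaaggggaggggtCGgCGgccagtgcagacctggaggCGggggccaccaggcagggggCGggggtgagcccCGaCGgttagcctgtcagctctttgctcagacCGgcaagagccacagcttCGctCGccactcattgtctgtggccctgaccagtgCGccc
Tpi1: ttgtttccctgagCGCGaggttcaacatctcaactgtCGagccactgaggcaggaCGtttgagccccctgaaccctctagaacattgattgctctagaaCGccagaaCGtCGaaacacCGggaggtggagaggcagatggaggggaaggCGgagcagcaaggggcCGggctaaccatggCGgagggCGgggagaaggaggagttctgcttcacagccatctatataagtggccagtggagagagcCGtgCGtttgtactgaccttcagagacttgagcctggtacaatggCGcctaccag
Gfap: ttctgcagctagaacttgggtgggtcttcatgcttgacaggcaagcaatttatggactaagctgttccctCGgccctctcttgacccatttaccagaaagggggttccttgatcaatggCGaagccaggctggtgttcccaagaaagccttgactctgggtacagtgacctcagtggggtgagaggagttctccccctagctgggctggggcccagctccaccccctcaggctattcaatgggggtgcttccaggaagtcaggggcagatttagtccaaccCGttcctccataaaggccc
Ins1: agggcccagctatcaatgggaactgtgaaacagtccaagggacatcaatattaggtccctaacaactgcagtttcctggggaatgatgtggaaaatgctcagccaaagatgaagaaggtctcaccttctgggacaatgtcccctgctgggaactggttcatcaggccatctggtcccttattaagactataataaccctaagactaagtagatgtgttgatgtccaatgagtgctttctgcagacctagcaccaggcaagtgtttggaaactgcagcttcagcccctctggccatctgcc
Wfdc17: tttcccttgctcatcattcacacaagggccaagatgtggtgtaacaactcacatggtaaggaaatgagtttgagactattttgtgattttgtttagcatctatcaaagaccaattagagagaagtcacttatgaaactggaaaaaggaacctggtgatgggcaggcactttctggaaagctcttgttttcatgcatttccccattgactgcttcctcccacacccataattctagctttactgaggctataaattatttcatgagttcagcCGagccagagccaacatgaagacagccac
The motif searched was CG, which reads the same on both strands. The Wnt1 window held 26 CG, the Tpi1 window 15 and the Gfap window 3, whereas the Wfdc17 window held 1 and the Ins1 window 0. The median over all 32851 promoters of this length was 7, and 94.6% of them held at least 1. At least as many as in Wnt1 were found in 16.9% of promoters, and at least as many as in Tpi1 in 34.6%. These 5 were taken for display with their domain calls known, so their base content describes them and stands for no class of genes. In the gene-by-gene test given below, protein-coding genes called lower had a median of 11 CG (31 promoters matched). All protein-coding genes tested had a median of 12 (8960 matched), and only 1 promoter of a gene called higher was matched.

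Domains covered less of the genome in trained mice. They covered 325 and 334 Mb in trained 1 and 2, against 369, 416 and 409 Mb in untrained 1, 2 and 3, that is 330 ± 6.33 Mb (SD, n = 2) and 398 ± 25.3 Mb (SD, n = 3). Both trained libraries lay below every untrained one, a difference of -17.1%, and an exact two-sided permutation test gave p = 0.2, the smallest value that 2 mice against 3 allow. The ChIP reads that fell in domains were 16.4 and 17.9 M (M, mega) in the trained libraries and 19.5, 21.6 and 22.3 M in the untrained libraries, again with no overlap. The input reads counted in the same domains showed the same size of difference, with 12.1 and 11.9 M in trained mice and 13.2, 16.1 and 15.3 M in untrained mice. Per kb of domain, ChIP reads (means of 51.9 in trained and 53.1 in untrained mice) and input reads (36.5 and 37.3) overlapped between groups. Because the tissue was whole CA1, fewer cells of a type carrying the domain and less mH2A1 per cell cannot be told apart. Whether libraries differed in total sequencing depth or in the yield of the immunoprecipitation was not tested, since reads outside domains were not in the lists.

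Domain number, median length and scaled ChIP over input across all domains differed by less than the spread between mice. Domain number averaged 73180 ± 13210 (SD, n = 2) in trained mice and 80721 ± 16497 (SD, n = 3) in untrained mice, and trained 2 and untrained 3, with the fewest domains, came from opposite groups. Median length was 3000 and 3800 bp in trained mice, against 3200, 3000 and 4600 bp in untrained mice. Scaled ChIP over input within domains was 1.43 and 1.34 in trained mice, against 1.37, 1.42 and 1.32 in untrained mice. On each of these 3 measures the groups overlapped (exact permutation tests, p = 0.8, 1.0 and 0.8). The plot of library measures shows covered length and ChIP reads separated between groups, and domain number and median length mixed.

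**Figure D1:**
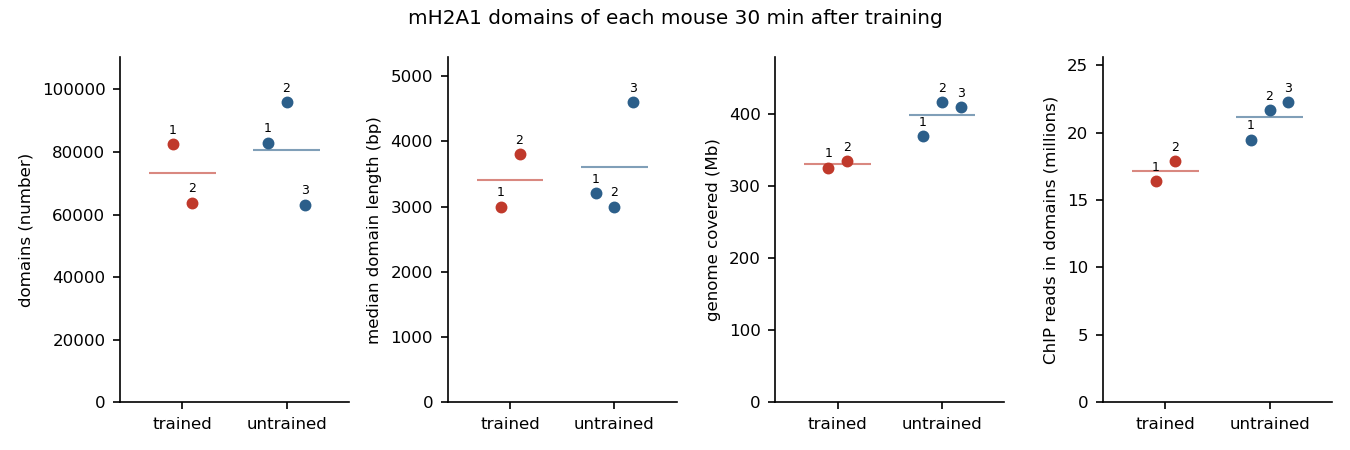
Each panel plots 1 measure of the mH2A1 domain lists, with a point for each library, trained mice on the left and untrained mice on the right, and a line at the group mean. Covered length lies at 325 and 334 Mb in the trained libraries, below the 369 to 416 Mb of the untrained libraries, whereas domain number and median domain length overlap between groups.

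Long domains were not a fixed set. Domains longer than 20 kb numbered 482 and 1341 in trained mice and 1081, 1351 and 2130 in untrained mice, with overlap (exact permutation test, p = 0.4). The longest domain in trained mice, 153.2 kb in trained 2 at chr8:120900401-121053600, and the longest in untrained mice, 173.2 kb in untrained 3 at chr8:120901801-121075000, occupied nearly the same place, within the annotated gene Gm20388. The other 4 longest of the trained group all came from trained 2 and lay at Pax7 (a transcription factor of neural crest and muscle precursors, 147.8 kb), over Irf8 (a transcription factor of microglia and other myeloid cells, 118.0 kb), at Grm4 (a metabotropic glutamate receptor, 105.2 kb) and at Ano1 (a calcium-activated chloride channel, 99.2 kb). Those of the untrained group lay at Igsf21 (153.8 kb) and Bmp7 (a secreted bone morphogenetic protein, 153.8 kb), at chr8:121234201-121384800 (150.6 kb) and at Shisal1 (138.6 kb).

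Domains with a strong ratio went the other way. Those with a log2 ratio over 1 made up 9.86 and 6.06% of domains in trained mice and 4.85, 5.02 and 1.33% in untrained mice, with both trained libraries above every untrained one (exact permutation test, p = 0.2). They covered 24.8 and 13.1 Mb in trained mice, against 9.20, 9.92 and 2.03 Mb in untrained mice. Chromosomes 7 and 12 held 35.0 and 45.3% of them in trained mice, against 30.1, 25.5 and 24.3% in untrained mice, while the same 2 chromosomes held only 10.4 to 13.1% of all other domains in the 5 libraries. Repeat sequence made up 44.6 and 45.01% of these domains in trained mice and 43.2, 40.4 and 42.4% in untrained mice.

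Much of the covered sequence differed from mouse to mouse. All 5 libraries shared 94.7 Mb, 24.5 Mb was covered in all 3 untrained mice and in neither trained mouse, and 11.6 Mb was covered in both trained mice and in no untrained mouse. Overlap of covered bins, as shared bins over bins covered in either library (Jaccard index), was 0.36 between the 2 trained mice, 0.35 to 0.41 between trained and untrained mice and 0.41 to 0.44 among untrained mice. The trained mice therefore resembled each other no more than they resembled untrained mice. The sequence covered in untrained mice alone had a G+C content of 49.4% and 13.9 CG per kb, against 44.1% and 8.51 per kb in the sequence covered in trained mice alone. The whole genome had 41.7% and 8.26 per kb.

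Coverage differed most in G+C-rich sequence. In bins under 35% G+C, 2.62 and 2.44% were covered in trained mice and 2.32, 2.28 and 2.85% in untrained mice, with overlap. In bins of 50 to 55% G+C, 26.7 and 28.4% were covered in trained mice, against 33.4, 38.9 and 35.5% in untrained mice. At 60% or more, 22.7 and 23.5% were covered in trained mice, against 34.2, 46.0 and 35.3% in untrained mice. The ratio of trained to untrained means was 1.02, 0.99, 0.91, 0.84, 0.77, 0.69 and 0.60 over the 7 classes in rising order of G+C, and no groups overlapped from 40% upward. Whether base composition itself has a part in this difference was not tested.

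**Figure D2:**
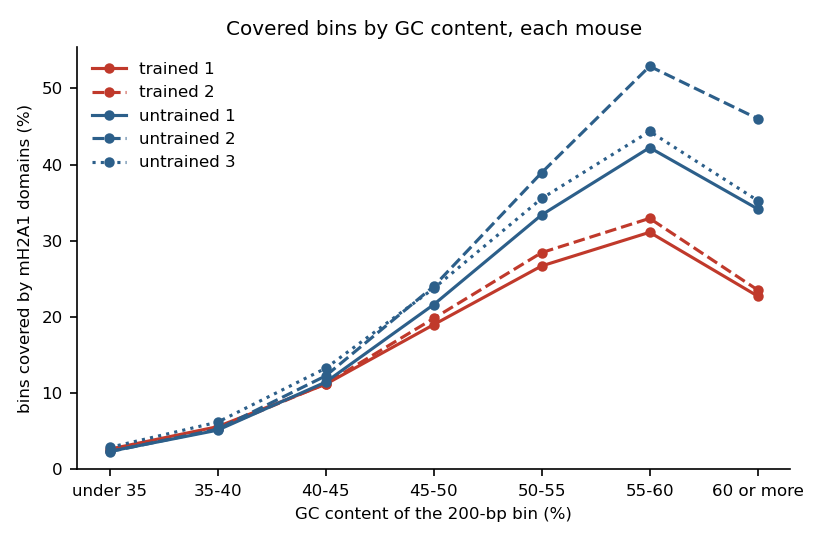
The percent of 200-bp bins covered by mH2A1 domains is drawn against the G+C content of the bin, with trained and untrained libraries in separate colours. The libraries overlap under 40% G+C and part above it, down to 22.7 and 23.5% in trained mice against 34.2 to 46.0% in untrained mice in the bins richest in G+C.

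Coverage was lower on most autosomes. On 13 of 21 chromosomes (61.9%), all of them autosomes, both trained libraries lay below every untrained one, although no chromosome passed an adjusted threshold (smallest adjusted p = 0.3 in exact permutation tests over 21 chromosomes). Chromosome 11, rich in genes, had 16.2 and 16.9% covered in trained mice and 20.4, 25.4 and 23.0% in untrained mice, a ratio of means of 0.721. Chromosome 15, which carries Arc, followed with means of 11.9% in trained mice and 15.9% in untrained mice (ratio 0.748). Chromosomes 12 and 13 had ratios of 0.906 and 0.927, with overlap. Called domains were almost absent from the X chromosome, where 0.21% was covered in either group. Its few domains held 39.5 and 42.2 input reads per kb in trained mice and 45.2, 51.4 and 48.0 in untrained mice. Over all domains of a library, input reads per kb were 35.6 to 38.6. The mice were male, and whether X copy number has a part in the low coverage was not tested. As a share of all covered bases, both trained libraries were lower on 3 chromosomes (2, 11 and 15) and higher on 5.

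**Figure D3:**
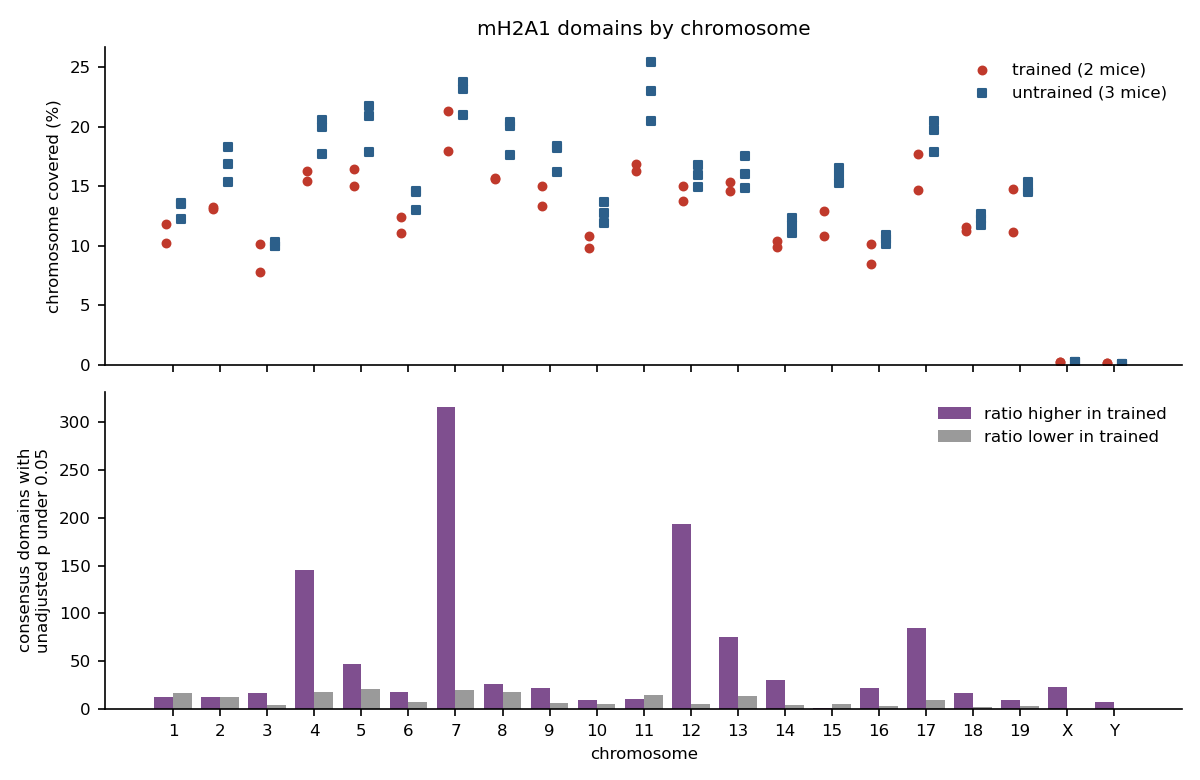
The covered percent of each chromosome is plotted with a point for each library, trained mice beside untrained mice. Trained means lie below untrained means on chromosomes 11 (16.6 and 23.0%) and 15 (11.9 and 15.9%), and the X and Y chromosomes lie near 0 in all libraries.

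Sequence in and near genes showed the larger difference. Within 2 kb of a start site, 15.2 and 16.5% of bases were covered in trained mice, against 20.3, 26.1 and 23.0% in untrained mice (ratio of means 0.684). Gene bodies farther from a start site had 9.13 and 9.78% covered in trained mice, against 12.1, 15.1 and 13.1% in untrained mice (0.703). Between genes, the values were 13.5 and 13.5% in trained mice and 14.1, 14.8 and 15.7% in untrained mice (0.909). The groups did not overlap in any of these 3 regions. Domains between genes accordingly made up more of the covered bases in trained mice, at 68.1 and 66.7%, than in untrained mice, at 62.8, 58.5 and 63.3%.

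The more a gene was expressed, the lower was the ratio of trained to untrained coverage. The difference in percentage points did not follow that order. Genes were ranked by RNA-seq counts of intact CA1 from other, untrained mice of the series and divided into tertiles, and the covered percent was taken over each gene and 2 kb upstream and averaged over genes. In the upper tertile (5531 genes), 4.18 and 4.31% was covered in trained mice, against 9.77, 18.9 and 10.7% in untrained mice. The middle tertile (5530 genes) had 8.85 and 9.39% in trained mice and 15.0, 24.0 and 16.9% in untrained mice, and the lower tertile (5531 genes) had 26.4 and 28.9% in trained mice and 35.4, 40.9 and 39.4% in untrained mice. The 3515 genes listed at 0 in every untrained RNA library overlapped between groups, with 22.1 and 22.5% in trained mice and 22.4, 23.7 and 24.5% in untrained mice. Over all 21938 protein-coding genes the values were 14.7 and 15.6% in trained mice and 20.2, 26.8 and 22.5% in untrained mice, a ratio of means of 0.655. From the upper to the lower tertile the ratio of means was 0.323, 0.490 and 0.717, and for genes listed at 0 it was 0.949. In percentage points the differences of the tertiles were -8.90, -9.50 and -10.9, largest in the lower tertile, beside -1.21 for genes listed at 0. The order of the ratios held at equal G+C content. In bins of 55% G+C or more, the ratio was 0.33 for the upper tertile (9.51 and 9.52% in trained mice, 21.2, 40.8 and 23.6% in untrained mice) and 0.85 for genes listed at 0 (53.2 and 57.0% in trained mice, 63.5, 67.5 and 63.0% in untrained mice). Untrained 2 was the highest library in the upper tertile, and without it the ratio of means there was 0.41.

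**Figure D4:**
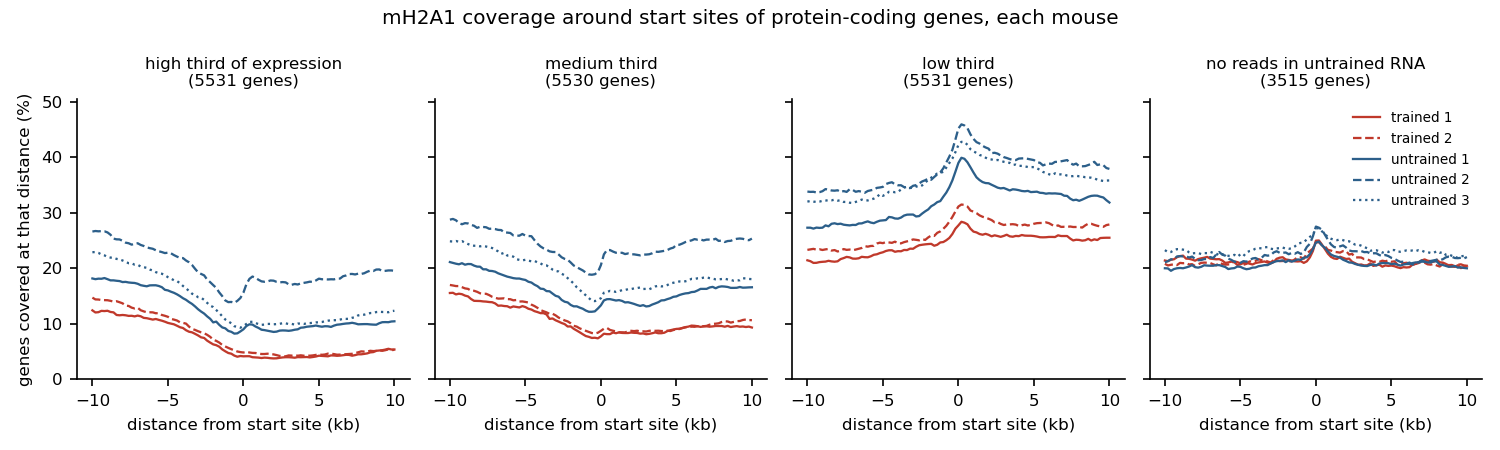
The percent of genes with a domain is plotted against the distance from the start site, from 10 kb upstream to 10 kb downstream, for genes grouped by their RNA level in untrained CA1, with 1 line for each library. At the start sites of the most expressed genes the trained libraries stood at 4.10 and 4.79% and the untrained libraries at 8.97, 15.6 and 9.55%, while the lines of genes listed at 0 overlap.

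Across 24 gene lists and the genes that rose in RNA, 14 had both trained mice below every untrained mouse, 2 had both above, and 9 overlapped. The mean over all 21938 protein-coding genes, the background for list means, also had both trained mice below every untrained mouse. Single genes are the background for list members: 3044 of 21938 (13.9%) had both trained mice below every untrained mouse, and 508 (2.32%) had both above. Of the 21938, 16131 had a covered base in any library, and shares of single genes do not compare with shares of list means. The lists describe covered length and carry no test. Genes of general upkeep had little coverage in trained mice. Ribosomal protein genes (77 genes) had 1.28 and 0.866% covered in trained mice, against 8.57, 20.2 and 6.14% in untrained mice. Rpl22 and Rpl38, both of the large ribosomal subunit, were uncovered in both trained mice, and were covered at 73.6, 91.0 and 31.0% and at 18.5, 100 and 82.8% in untrained mice. Genes of oxidative phosphorylation (75 genes), the mitochondrial chain that makes ATP, had 1.16 and 1.48% in trained mice, against 7.42, 16.0 and 5.79% in untrained mice. Only 4 of the 77 and 3 of the 75 genes had both trained mice below every untrained mouse, and 38 of the 77 and 41 of the 75 had a covered base in any library. In the 2 kb upstream alone, ribosomal protein genes stayed below in both trained mice. Genes of oxidative phosphorylation overlapped there, with 1.77 and 3.10% in trained mice and 6.97, 9.10 and 1.71% in untrained mice.

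Neuronal gene lists were also lower in trained mice. Markers of CA1 pyramidal neurons (12 genes) had 7.32 and 14.8% covered in trained mice, against 24.1, 34.1 and 31.7% in untrained mice. Among them, Fibcd1 had 29.1 and 34.3% in trained mice and 100, 97.7 and 100% in untrained mice, and Camk2a, the calcium-dependent kinase of the postsynaptic density, had 0 and 15.5% in trained mice and 27.9, 41.5 and 51.4% in untrained mice. Pou3f1, a transcription factor, had 0 and 31.7% in trained mice, against 82.9, 62.5 and 76.1% in untrained mice. All 3 genes separated the groups.

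Voltage-gated potassium channel genes (43 genes), which set the resting and firing properties of neurons, had 18.2 and 20.8% covered in trained mice, against 28.9, 37.4 and 32.7% in untrained mice, with 12 members below and 1 above. Kcnh3 was uncovered in both trained mice and covered at 96.3, 91.0 and 100% in untrained mice, and it passed in the fit over all genes (limma, adjusted p = 0.0344), a call lost without untrained 3, when limma called 0 genes. Kcnh2 had 30.6 and 0% in trained mice, against 61.2, 94.1 and 92.4% in untrained mice. Glutamate receptor genes (26 genes) had 15.2 and 19.6% in trained mice, against 21.9, 27.2 and 27.1% in untrained mice. Their ratio of means was 0.686, with 5 members below and 1 above. Over all protein-coding genes the ratio was 0.655, with both trained mice below in 13.9% of genes and above in 2.32%. Grin1, the obligatory subunit of the NMDA receptor, was uncovered in both trained mice and covered at 44.6, 52.0 and 62.7% in untrained mice (limma, adjusted p = 0.158). Grin2d, another NMDA receptor subunit, had 10.3 and 24.3% in trained mice, against 66.2, 66.2 and 56.5% in untrained mice. By contrast, GABA-A receptor genes (19 genes) overlapped, with 9.81 and 8.33% in trained mice and 9.10, 12.7 and 11.3% in untrained mice.

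Over the gene and 2 kb upstream, most lists for other cell types of CA1 were lower as well. Inhibitory neuron markers (16 genes) had 38.3 and 41.7% covered in trained mice, against 53.7, 53.5 and 54.0% in untrained mice, and Dlx2, a transcription factor of the interneuron lineage, was uncovered in both trained mice and covered at 73.8, 70.9 and 81.3% in untrained mice. Astrocyte markers (12 genes) had 17.9 and 26.2% in trained mice, against 37.8, 41.3 and 33.2% in untrained mice. Gfap had 0 and 0% in trained mice and 72.6, 58.5 and 62.3% in untrained mice, and Fgfr3, a growth factor receptor, had 6.48 and 13.8% in trained mice and 100, 93.9 and 89.3% in untrained mice. Fgfr3 passed and Gfap did not (limma, adjusted p = 0.0491 and 0.0932), and without untrained 3 limma called 0 genes, so that this call was lost. Oligodendrocyte markers (31.1 and 48.4% in trained mice, 53.1, 59.96 and 54.0% in untrained mice) and microglia markers (49.1 and 54.1% in trained mice, 61.4, 62.6 and 59.9% in untrained mice) followed, while endothelium markers overlapped (33.0 and 44.0% in trained mice, 37.4, 46.7 and 43.3% in untrained mice). Ratios of means were 0.368 for CA1, 0.744 for inhibitory neuron, 0.589 for astrocyte, 0.714 for oligodendrocyte and 0.842 for microglia markers. All protein-coding genes stood at 0.655, so of these lists only CA1 and astrocyte markers were lower than genes as a whole. The upper and middle expression tertiles stood at 0.323 and 0.490. CA1 markers lay between these 2 values, and astrocyte markers lay above both. Members with both trained mice below numbered 4 of 12, 5 of 16, 2 of 12, 2 of 12 and 3 of 12 in that order. The share over all protein-coding genes was 13.9%, and 1 oligodendrocyte marker had both above. In the 2 kb upstream alone, inhibitory neuron, astrocyte and microglia markers overlapped between groups, with ratios of means of 0.981, 0.676 and 0.929. Oligodendrocyte (0.587) and CA1 markers (0.513) stayed below in both trained mice in that window. No RNA of the ChIP mice was measured, so the makeup of their tissue was not tested.

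Hox and collagen genes differed less. Hox genes (39 genes), which pattern the body axis, had 69.7 and 74.3% covered in trained mice, against 77.9, 80.2 and 80.1% in untrained mice, and collagen genes (44 genes) had 40.5 and 44.9% in trained mice, against 46.6, 50.8 and 49.7% in untrained mice. Both lists lay below in trained mice, but relative to the genome-wide covered percent of each library they turned round, with ratios of 1.09 and 1.05, as did microglia markers at 1.01. On that relative scale the groups separated for Hox genes and overlapped for collagen genes and microglia markers.

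Over the gene and 2 kb upstream, chemosensory receptor genes were the only lists above in both trained mice. In the 2 kb upstream alone, olfactory receptor genes overlapped between groups and vomeronasal receptor genes stayed above. Beta-defensin genes (42 genes) also lay above there, with 52.3 and 57.3% in trained mice and 41.7, 50.3 and 47.5% in untrained mice. Olfactory receptor genes (1093 genes) had 10.6 and 10.5% covered in trained mice, against 9.24, 9.76 and 9.93% in untrained mice, with 52 members above and 30 below. Vomeronasal receptor genes (327 genes), the pheromone receptors, had 10.1 and 9.37% in trained mice, against 7.31, 7.52 and 8.82% in untrained mice, with 30 members above and 4 below. Over all protein-coding genes, 2.32% had both trained mice above and 13.9% had both below. Vmn1r222 had 28.1 and 39.4%, Vmn1r171 31.9 and 28.3% and Vmn1r12 32.7 and 23.1% in trained mice, and all 3 were uncovered in every untrained mouse. These families hold near-identical copies between which short reads may be split, so single members are uncertain. Olfr523 went the other way, with 26.5 and 0% in trained mice and 100% in each untrained mouse.

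**Figure D5:**
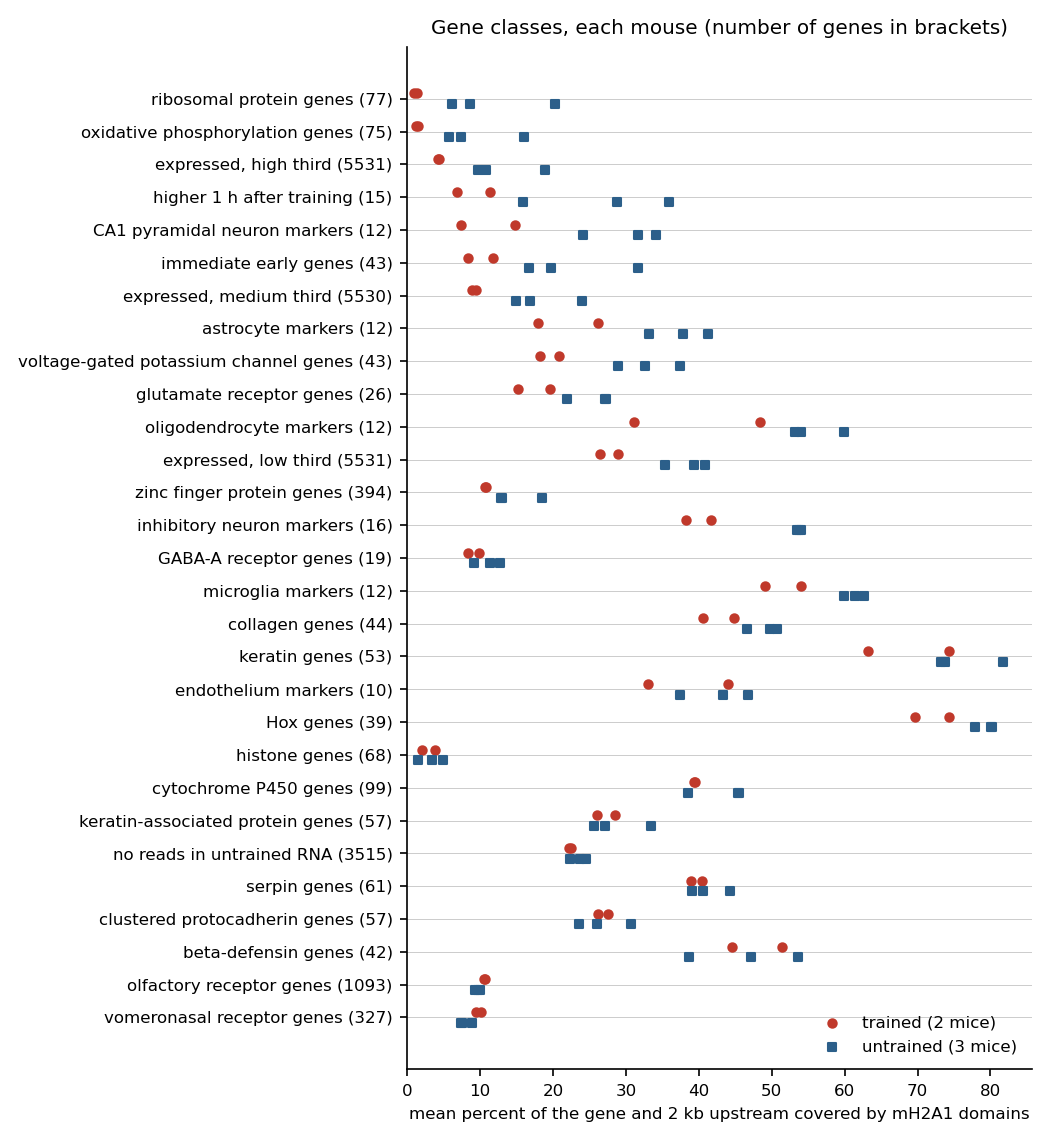
The covered percent of each gene list, over genes and 2 kb upstream, is plotted with a point for each library, trained mice and untrained mice in separate colours. Ribosomal protein genes (1.28 and 0.866% in trained mice, 6.14 to 20.2% in untrained mice) lie far below in trained mice, Hox genes lie high in all libraries, and vomeronasal receptor genes lie above in both trained mice.

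Immediate early genes had less coverage in trained mice as a list. The 43 genes found of 44 listed had 8.33 and 11.8% covered in trained mice, against 16.7, 31.6 and 19.7% in untrained mice, and 11 and 14 members had any covered base in trained 1 and 2, against 18, 31 and 19 in untrained 1, 2 and 3. Arc, Klf2, Fosl2 and Dusp1 had both trained mice below every untrained mouse, no member had both above, and 10 had no covered base in any library, among them Homer1, Ptgs2, Srf and Tiparp. These 4 of 43 are a smaller share than the 13.9% of all protein-coding genes in which both trained mice lay below. Of the 27 members with enough coverage to be tested, 0 passed at an adjusted p under 0.05 (limma, fitted over all 27434 genes with enough coverage, of which 0.605% passed). The median difference of those 27 was -19.42 percentage points, beside -9.90 points over all genes tested, -11.52 over the protein-coding genes tested and -16.64 over those tested in the upper expression tertile.

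Arc (chr15:74669083-74672570, minus strand), which encodes a protein that regulates AMPA receptor traffic at synapses, had no covered base in either trained mouse and 59.9, 85.4 and 100% covered in untrained 1, 2 and 3. The difference of -81.8 percentage points did not pass (limma, adjusted p = 0.155). The 2 kb upstream alone had 0 and 0% in trained mice, against 48.5, 100 and 100% in untrained mice. The nearest domains of the trained mice ended 5.28 kb and 14.5 kb away. The longest domain over Arc had log2 ratios of 0.15 (689 ChIP reads and 575 input reads over 12.4 kb, untrained 1), 0.23 (810 and 731 reads over 15.2 kb, untrained 2) and 0.19 (1186 and 946 reads over 21.2 kb, untrained 3), each below the median of 0.46, 0.50 and 0.40 of all domains of that library. A second domain reached Arc or the sequence just upstream in untrained 1 (1.6 kb, log2 ratio 0.37) and in untrained 2 (11.4 kb, 0.52). A domain absent from a list may still have held reads close to the threshold, since reads outside domains were not in the files.

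The other genes of this group varied between mice. Klf2, a Krüppel-like transcription factor, was uncovered in both trained mice and covered at 68.5, 18.5 and 100% in untrained mice. Fosb, an AP-1 subunit, was uncovered in both trained mice and had 0, 59.4 and 62.0% in untrained mice. Fosl2, also of AP-1, had 0 and 3.33% in trained mice, against 37.4, 53.2 and 15.0% in untrained mice. Among these, Klf2 and Fosl2 separated the groups and Fosb did not.

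Fos had 22.0 and 0% covered in trained mice and 0, 48.3 and 0% in untrained mice, and Egr1, a zinc finger transcription factor, had 25.1 and 0% in trained mice and 0, 36.3 and 0% in untrained mice. Egr2, of the same family, was among the best covered members, with 35.9 and 74.9% in trained mice and 39.0, 26.7 and 79.5% in untrained mice. Fos, Egr1 and Egr2 all overlapped between groups. Npas4, an activity-dependent transcription factor, was covered in untrained 2 alone, at 73.4%.

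RNA from intact CA1 of other mice, killed 1 h after training (2 trained and 3 untrained, 48.8 to 58.7 M counts a library), shows which genes rise. At an adjusted p under 0.01, edgeR called 15 of 15641 genes higher (0.0959%) and 0 lower (0.0%), with 1809 higher and 1311 lower at an unadjusted p under 0.05. DESeq2 called 362 higher and 102 lower. The 15 included Arc, at 431 and 365 CPM (read counts scaled to library size) in trained mice and 74.4, 91.7 and 115 CPM in untrained mice (log2 difference 2.09), and Egr2, at 10.4 and 11.7 CPM in trained mice and 0.987, 0.876 and 1.27 CPM in untrained mice (3.40). Over these 15 genes, mH2A1 domains covered 6.77 and 11.4% in trained mice, against 15.9, 35.9 and 28.8% in untrained mice at 30 min, with 2 members below and 0 above, a share close to the 13.9% of all protein-coding genes. That ratio of 0.338 stands beside 0.655 for all protein-coding genes and 0.323 for the upper expression tertile. The summed RNA of dentate granule markers, a sign of neighbouring tissue, was 57.3 and 28.5 CPM in trained mice and 10.5, 36.2 and 13.9 CPM in untrained mice, and that of CA1 markers 1253 and 1389 CPM in trained mice and 1034, 1451 and 1226 CPM in untrained mice.

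Gene by gene, limma on the covered percent of the gene and its 2 kb upstream called 166 of 27434 genes (0.605%) at an adjusted p under 0.05, of which 27 were higher (0.0984%) and 139 lower (0.507%) in trained mice. Most of the called genes are short: 95 of the 139 lower and all 27 higher genes were under 2 kb. In 59 of the lower and 9 of the higher genes each mouse had the gene wholly inside or wholly outside a domain, and 129 of the 139 lower genes had no covered base in either trained mouse. They included 41 protein-coding, 28 microRNA and 28 pseudogene entries among the lower genes, and 3 protein-coding and 17 pseudogene entries among the higher ones. Where a gene stood at 0% or 100% in every mouse of a group its spread was 0, and limma took the error from the other genes. Without untrained 3, limma called 0 genes in either direction, and without trained 2 it called 584 higher and 491 lower. For 2 kb on each side of the start site in place of the gene, it also called 0 of 25702 in either direction (402 higher and 1419 lower at an unadjusted p under 0.05).

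Of the protein-coding genes, 10 that are named here stood at 0% in both trained mice and 100% in all 3 untrained mice (limma, adjusted p = 0.0314 for each), a tie broken by the alphabet after the values were seen. These calls were lost without untrained 3, when limma called 0 genes. They were Angptl8 (a secreted regulator of lipoprotein lipase), Ccer2, Cd248 (the pericyte protein endosialin), Gng13 (a G protein gamma subunit), Mapk15 (an atypical MAP kinase), Mrgpre (a Mas-related receptor), Pla2g4b (a cytosolic phospholipase A2), Prr22, Tpi1 and Wnt1. Tpi1 (chr6:124810586-124814296) was strongly expressed in intact CA1 of other mice, at 584 and 611 CPM 1 h after training and 616, 582 and 592 CPM in untrained mice. Wnt1 (chr15:98789857-98793837) had at most 0.104 CPM. Its CG-rich promoter and that of Tpi1 are printed above.

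Fewer genes gained coverage. Cypt12, a gene of the sperm head, and Defa25, an alpha-defensin of the gut, stood at 100% in both trained mice and at 0% in all untrained mice (limma, adjusted p = 0.0314 for each), calls that were lost without untrained 3, and Defa25 has near-identical neighbours. The next genes did not pass. Wfdc17 had 76.6 and 100% in trained mice and 0, 0 and 15.6% in untrained mice (limma, adjusted p = 0.0965), Ins1 50.3 and 69.2% in trained mice and 0% in each untrained mouse (0.128), and Id1, an inhibitor of DNA-binding helix-loop-helix factors, 68.4 and 44.6% in trained mice and 0% in each untrained mouse (0.173). Wfdc17 and Ins1 are the CG-poor promoters printed above.

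Where a domain was present in all libraries, its ratio could be compared. Runs of bins covered in at least 2 libraries numbered 96764, and 10239 of them were covered over at least 50% in each library and entered the test, so a domain lost from a mouse is not among them. At an adjusted p under 0.05, limma called 0 (0.0%). At an unadjusted p under 0.05, 1101 were higher (10.8%) and 190 lower (1.86%) in trained mice. Groups did not overlap at 1485 with trained above (14.5%) and 1714 with trained below (16.7%), and the median difference was -0.03 on the log2 scale. EdgeR on the ChIP counts with input as an offset called 335 higher and 3 lower. Limma called 463 higher and 3 lower without trained 2, and 0 higher without untrained 3.

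Domains that leaned upward lay together on a few chromosomes. Chromosome 7 held 316 of 1164 tested domains higher at an unadjusted p under 0.05 (27.1%), chromosome 12 held 193 of 665 (29.0%) and chromosome 4 held 145 of 797 (18.2%), against 1 of 345 on chromosome 15. On chromosome 12 they filled the 15 to 20 Mb window (77 of 120) and the 20 to 25 Mb window (68 of 126). On chromosome 7, the 10 to 15 Mb window, with 32 vomeronasal receptor genes, held 61 of 88, and on chromosome 4 the 145 to 150 Mb window, with 18 Zfp genes, held 63 of 108. Of the few tested domains on the X chromosome, 23 of 42 were higher.

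Domains over 2 tandem gene families leaned upward too, although the windows at 15 to 25 Mb of chromosome 12 hold no gene of either family. Of 87 tested domains that overlap a zinc finger protein gene, 36 were higher and 0 lower at an unadjusted p under 0.05, with a median difference of 0.25 on the log2 scale. Of 46 that overlap a vomeronasal receptor gene, 22 were higher and 0 lower (median difference 0.35). Their median log2 ratios were 1.13 and 0.92 in trained mice, against 0.75, 0.71 and 0.55 in untrained mice. Domains over Hox genes (24 domains, 0 higher), collagen genes (47 domains, 1 higher and 1 lower) and glutamate receptor genes (7 domains, 5 with trained below every untrained) had median differences of -0.10, -0.11 and -0.13. Over all 10239 tested domains, 16.7% had both trained mice below every untrained mouse. The zinc finger genes thus had less covered length in trained mice, at 10.7 and 10.7% in trained mice and 12.9, 18.5 and 13.1% in untrained mice, and a higher ratio in those domains that were present throughout.

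The upward lean was more frequent over repeats. Domains with at least 50% repeat sequence were higher in 362 of 1343 cases (27.0%), and those under 25% in 237 of 5257 (4.51%). Over the 1101 higher domains, median ChIP reads per kb were 46.9 and 50.4 in trained mice and 44.5, 45.5 and 54.2 in untrained mice, with overlap, whereas median input reads per kb were 20.6 and 21.6 in trained mice, below the 24.3, 29.2 and 33.1 of untrained mice. Both counts are without scaling for library size, and the domains were chosen by a ratio that contains both, so these values are a description. Over the 190 lower domains, median log2 ratios were 0.30 and 0.28 in trained mice and 0.61, 0.69 and 0.56 in untrained mice. Their input reads per kb were 33.9 and 35.2 in trained mice, above the 28.4, 32.5 and 32.5 of untrained mice, and their ChIP reads per kb were 39.8 and 47.4 in trained mice, below the 47.7, 48.7 and 53.2 of untrained mice.

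None of the domains with the smallest p passed. Among the 5 highest, the domain at chr7:3068801-3075800 had log2 ratios of 1.55 and 1.55 in trained mice, against 0.87, 0.72 and 0.75 in untrained mice (limma, adjusted p = 0.0762, as for the other 4). The domain at chr17:18116601-18121600, in the vomeronasal receptor gene Vmn2r91, had 1.32 and 1.50 in trained mice, against 0.55, 0.66 and 0.64 in untrained mice. Another at chr7:43235201-43238200, 43.1 kb from the zinc finger gene Zfp936, had 1.36 and 1.80 in trained mice, against 0.69, 0.41 and 0.61 in untrained mice. In each, every trained value lay above every untrained value.

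Among the 5 lowest, the domain at chr7:136197801-136201400 had 0.45 and 0.46 in trained mice, against 1.08, 1.05 and 1.09 in untrained mice (limma, adjusted p = 0.0864). The domain at chr7:143396801-143402200 in Kcnq1, a potassium channel gene within an imprinted region, had 0.25 and 0.18 in trained mice, against 0.72, 0.86 and 0.61 in untrained mice (limma, adjusted p = 0.117). One at chr11:106370001-106384800 over Prr29 and Icam2, an adhesion molecule of endothelium, had 0.24 and 0.18 in trained mice, against 0.66, 0.69 and 0.61 in untrained mice.

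Sites with very many reads in every library mostly had higher ratios in trained mice. Of 13 places among the 20 with most ChIP reads in all 5 libraries, the log2 ratio was above in both trained mice at 9 and below at 0, input per kb was below at 6, and ChIP per kb was above at 0 and below at 1. The first of them, at chr9:3000001-3072600 near the centromere, had log2 ratios of 1.07 and 0.93 in trained mice, against 0.70, 0.58 and 0.39 in untrained mice. It held 1124 and 1128 input reads per kb in trained mice, against 1337, 1660 and 1724 in untrained mice, and 2235 and 2397 ChIP reads per kb in trained mice, against 2350, 2349 and 2483 in untrained mice. Such places collapse many repeat copies onto the genome, and ratios there describe the copies together.

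The same 5 mice also gave libraries for mH2A2, the other macroH2A, which share the input of each mouse. MacroH2A2 domains covered 324 and 226 Mb in trained mice and 327, 407 and 366 Mb in untrained mice, again with both trained libraries below, but trained 2 stood apart with 12.2 M ChIP reads in domains beside 24.9 M in trained 1 and 23.7 to 26.9 M in untrained mice. The training effects on covered length did not differ detectably (mH2A1 minus mH2A2, 0.16 on the log2 scale, exact permutation test, p = 0.8, smallest possible 0.2). Over Arc, mH2A2 covered 100 and 0% in trained mice and 100% in each untrained mouse. By G+C, the covered percent of mH2A2 in trained over untrained mice was 0.96 in bins under 35% and 0.65 in bins of 55 to 60%. Both trained mice lay below at 40 to 45% (9.44 and 8.22% in trained mice, 10.4, 11.7 and 10.4% in untrained mice) and at 45 to 50% (17.9 and 12.8% in trained mice, 18.6, 22.8 and 20.5% in untrained mice). In bins of 60% G+C or more, mH2A2 covered 40.0 and 15.5% in trained mice and 31.6, 48.8 and 43.0% in untrained mice and overlapped, with trained 1 inside the untrained range.

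At 6 h after training, 5 trained and 5 untrained mice had mH2A1 domains over 615 and 612 Mb on average (exact permutation test, p = 0.706), and the groups overlapped in every G+C class and every gene list. Arc had 51.8% covered in trained mice and 58.3% in untrained mice on average. The effect on covered length was -0.27 at 30 min and 0.01 at 6 h on the log2 scale, a difference of -0.28 (exact permutation test within each time, p = 0.0694, adjusted 0.174 over 5 measures). The 6 h libraries were made with another mH2A1 antibody and as a separate set, so time, antibody and library set cannot be told apart.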

How the data were processed

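The mH2A1 chromatin immunoprecipitation libraries and their inputs came from micrococcal nuclease-digested, crosslinked CA1 tissue, 1 mouse for each library. Per the study's methods, the authors trimmed paired-end reads, aligned them to mm10 with Bowtie2 and called broad domains for each mouse with epic2 (the submitters' processing notes name SICER, the method that epic2 implements, and DiffBind 2.10.0). Each deposited list gives a domain with its ChIP and input counts, a p-value, a false discovery rate (a q-value, under 0.05 in all rows), a log2 ratio of ChIP over input that the authors' caller scaled for library size, and a score that is 100 times that deposited log2 value. Coordinates were converted to 1-based. Reads outside domains were not in the lists, so a base is covered or not covered, and depth is known only as reads in domains (16.4 to 22.3 M ChIP reads). Counts cover counting error only, since reads carried no molecular identifiers.

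The genome was divided into 200-bp bins on GRCm38, and genes were those of GENCODE vM21. The covered percent of a gene includes 2 kb upstream, and genes with a mean of 5 to 95% over the 5 libraries were tested with limma 3.58.1 (R 4.3.3). Consensus domains are runs of bins covered in at least 2 libraries, tested with limma on log2 ratios where each library covered at least 50%. P-values were adjusted by Benjamini-Hochberg over all features tested. Single values were compared by exact two-sided permutation tests in SciPy 1.17.1, which cannot go below 0.2 for 2 mice against 3. RNA counts per gene, as the authors deposited them, were tested with edgeR 4.0.16 (quasi-likelihood, filterByExpr, TMM), with DESeq2 1.42.0 as an alternative. Adjusted p-values in the text come from limma or edgeR as named. The tests were checked on simulated data for these comparisons: limma recovered 14 of 100 domains changed by 0.6 and 0 of 100 changed by 0.3 on the log2 scale, and 33 of 100 genes changed by 60 percentage points and 2 of 100 changed by 30 points.

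Groups came from the sample titles. The mH2A1 and mH2A2 lists of a mouse carried the same input counts at every domain with identical bounds (872 to 1403 domains for each mouse). The gene lists and domains described here were chosen with earlier results of these data known. Genes named are those the study names for training, other immediate early genes, up to 4 members of a list with the largest difference and no overlap, and up to 10 genes gaining and 10 losing coverage with the smallest limma p, predicted genes left out. Domains named are the 5 longest in each group and 5 consensus domains in each direction with the smallest p. Promoters for display (Wnt1, Tpi1, Gfap, Ins1 and Wfdc17) were picked after their values were seen, and their sequences are from RefSeq (GRCm38.p6), matched by symbol.

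Alternatives were a stricter false discovery rate (0.001), domains of at least 1 kb, chromosomes 1 to 19 alone, centring, edgeR with input offset, other coverage limits (80%, 3 libraries), start-site windows, coverage relative to the genome-wide percent, no filter on low values, a replicate block and leaving out each replicate. Chosen after seeing the data were protein-coding genes alone, the replicate block for genes and RNA, the stricter rate for chromosomes, and leaving out replicates for chromosomes, gene lists, RNA and the differences between effects.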

Additional observations from a re-analysis of the deposited data

Results flagged for a closer look

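The effect of training on mH2A1 ChIP reads in domains differed between times by the unadjusted test alone. The log2 effect was -0.30 at 30 min (2 trained and 3 untrained mice) and 0.06 at 6 h (5 and 5 mice), a difference of -0.37 (exact permutation test within each time, p = 0.0127, adjusted 0.0635 over 5 measures). It kept its sign without each 30-min library in turn, from -0.43 to -0.30. Both trained libraries at 30 min held fewer reads than every untrained library, whereas reads at 6 h overlapped. The sets differ also in antibody and library set, which cannot be told apart from time. In 12 comparisons of single libraries with the others of their group (6 measures in each group of the 6 h set), no library stood far from the rest, where chance would give about 1 in 20. The 30-min groups of 2 or 3 libraries, with trained 2 of mH2A2 among them, were too small for this and were not tested.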

How the results depend on the processing

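Covered length and ChIP reads in domains stayed lower in trained mice under each alternative run, with log2 differences of -0.32 to -0.24 and -0.37 to -0.24 without each replicate in turn. Chromosomes lower in both trained mice numbered 13 to 17. Domain number (-0.34 to 0.032), median length (-0.26 to 0.13) and scaled ChIP over input (-0.028 to 0.060) changed sign without single replicates, as did the difference from mH2A2 in covered length (-0.12 to 0.44) and in ChIP reads (-0.38 to 0.77). Without trained replicate 2, which had few mH2A2 reads, these differences from mH2A2 were -0.12 and -0.38. The difference from 6 h kept its sign (covered length -0.33 to -0.24, ChIP reads -0.43 to -0.30).

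Consensus domains, 0 called in the limma test, gave 335 higher and 3 lower with edgeR, 10 higher with at least 80% coverage, and 0 to 463 higher and 0 to 3 lower without single replicates (463 without trained replicate 2, 49 without untrained replicate 1, 8 without trained replicate 1). Genes gave 27 higher and 139 lower in the main test, 0 and 0 for 2 kb on each side of the start site, 81 and 281 with all genes, 5 and 98 among protein-coding genes alone (3 and 41 of these in the main test), 29 and 84 relative to the genome-wide percent, and 0 to 584 higher and 0 to 491 lower without single replicates (0 without untrained replicate 3). Gene lists with both trained mice below, 14 of 25, were 8 for the 2 kb upstream alone and 9 relative to the genome-wide percent, and those above, 2, became 7. Relative to that percent, ratios of microglia markers (1.01), Hox genes (1.09) and collagen genes (1.05) turned round, and of these 3 lists Hox genes alone separated between groups. RNA calls, 15 higher and 0 lower, were 47 and 4 with no filter, 362 and 102 with DESeq2, and 1 to 255 and 0 to 161 without single replicates (255 and 161 without untrained replicate 2).

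Deviations from the group mean correlated at 0.13 between the mice numbered 1 and at 0.01 between those numbered 2. With 2 trained mice these deviations are exact opposites of each other. The correlations therefore cannot decide whether replicate numbers pair the mice. With the replicate block, limma gave 165 higher and 11 lower domains and 0 and 0 genes, and edgeR gave 0 RNA calls in either direction. The cause of these changes was not tested. Of 350 alternatives computed, 275 were classed as leaving the result the same and 11 as reversing it. Single gene lists and expression groups made up 210 of the 350, and 182 of these were classed as the same. They carry no test, so no threshold applies to them. In the simulated data with 2 trained mice, differences of 0.6 or less on the log2 scale in single domains were mostly not detected.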

Other observations

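Libraries for mH2A1 at 1 h after training, made with the antibody of the 6 h set, showed no separation of covered length: domains covered 569 and 620 Mb in trained mice and 646 and 566 Mb in untrained mice. They numbered 90889 and 86303 in trained mice and 80836 and 95469 in untrained mice. Over Arc, however, the order was turned round relative to 30 min, with 100 and 57.1% of bins covered in trained mice at 1 h, against 32.1 and 0% in untrained mice. The 2 trained values lay above the 2 untrained values, and no test was run on these 4 libraries.

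At the 879 consensus domains with a higher mH2A1 ratio (unadjusted limma p under 0.05) that mH2A2 domains also covered in all 5 mice, the median mH2A2 difference was 0.52 on the log2 scale. Both marks share the input of each mouse, so these values are not separate evidence.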
